A study of Caenorhabditis elegans with 12 samples.

Results

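The 4 libraries numbered replicate 2 were set against the 8 numbered replicates 1 and 3, out of 12 libraries of whole Caenorhabditis elegans in 4 groups of 3. The libraries were chosen by the replicate number in their titles, 1 from each group, and not by any measured value, but it was already known that these 4 stand apart in a principal component analysis. The groups were wild type with 0 or 1 mM fluvastatin, a statin that inhibits HMG-CoA reductase, and a mutant of dlk-1 with 0 or 1 mM fluvastatin. dlk-1 encodes a kinase that acts upstream of p38-type MAP kinase in neurons. The titles call the mutant a p38 knockout, and its allele is not stated. Animals were synchronised as first-stage larvae, reached the last larval stage (L4) about 48 h later, and were then kept for 9 h with or without the drug. Each condition pooled about 200 animals on each of 4 plates, so a library averages many animals and all their tissues. The labels say neither whether replicates were separate cultures nor what a replicate number stands for. p-values therefore measure the spread between these samples, and if same-numbered libraries shared a culture or a day, the comparison is of 1 batch with 2 others.

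In this species the hermaphrodite gonad first makes a limited store of sperm during the L4 stage and then switches to oocytes. Oocytes are loaded with yolk and maternal RNA, are fertilised as they pass the stored sperm, and develop for some hours inside the uterus, so RNA from whole gravid animals includes that of their embryos. Each larval stage ends in a moult, for which the epidermis makes a new collagen cuticle in a timed wave of collagens, hedgehog-related proteins, proteases and other matrix proteins, and the last such wave builds the adult cuticle. The age in hours of each collected sample beyond the common 9 h, and the share of animals past the moult or carrying embryos, were not recorded in the labels and were not tested.

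The libraries held 9370975 to 12438131 reads with 1 transcript model per gene, and the replicate 2 libraries lay within this range, at 10453386 to 11993994. Genes with reads numbered 18562 to 19683 per library. In the plot of principal components of log2 values, the first component (58.5% of variance) placed the replicate 2 libraries at 77.2 to 87.4 and the other 8 at -62.0 to -18.6, and the second (14.4%) parted the fluvastatin libraries from those without. As shares of the variance over all tested genes, the contrast of replicate 2 with the others took 56.2%, replicate 1 against 3 took 12.58%, fluvastatin 14.1%, genotype 3.48% and their interaction 1.71%. dlk-1 itself stood at 481 to 804 normalised reads in the mutant libraries and 791 to 1419 in wild type, and its replicate 2 difference was a log2 of -0.19 ± 0.08 (adjusted p = 0.0608, or 0.0366 with a term for each replicate number). Its exons overlap mec-19, and without strand their reads cannot be parted.

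**Figure D1:**
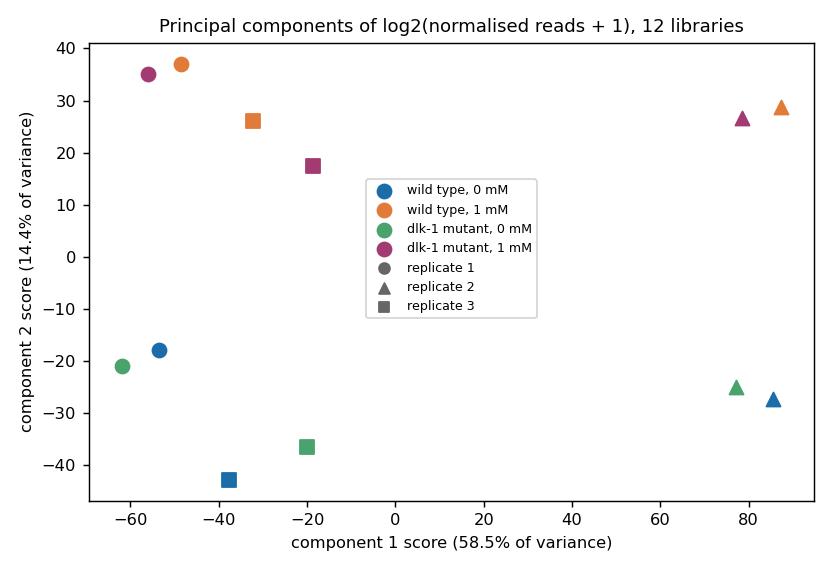
Scores of the 12 libraries on principal components 1 (58.5% of variance) and 2 (14.4%) of log2(normalised reads + 1), with colour for genotype and fluvastatin dose and shape for replicate number. The 4 replicate 2 libraries sit at 77.2 to 87.4 on the first component and no other library is above -18.6.

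Of 15529 genes tested with limma (adjusted p under 0.05, Benjamini-Hochberg, two-sided, group as block), 8515 (54.8%) were called, 3998 (25.7%) higher and 4517 (29.1%) lower in replicate 2. Larger falls outnumbered larger rises: 681 genes (4.39%) were called and at least 2-fold higher, and 2216 (14.3%) at least 2-fold lower. In 4019 genes (25.9%) the replicate 2 library was the highest of its 3 in all 4 groups, and in 4037 (26%) it was the lowest. All 4 replicate 2 libraries lay above all 8 others for 3201 genes (20.6%) and below them for 2728 (17.6%). Every count below is to be read against these shares. Only genes that reached 10 normalised reads in at least 3 libraries were tested (the filter). Genes low elsewhere could pass it through replicate 2 alone, and list counts leave out members not tested. Shares of rises among low genes are therefore partly set by the filter. With a term for each replicate number, 31.3% of genes were called higher and 35.7% lower. Differences are given as log2(normalised reads + 1), replicate 2 minus the mean of replicates 1 and 3, with its standard error (n = 4 and 8), and the median over all genes was -0.0369. The numbers 1 and 3 also differed from each other, with 5385 genes (34.7%) called, 2896 higher and 2489 lower in replicate 1.

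Among the rises in replicate 2 were genes known from embryos. Of all genes with a mean of at least 50 normalised reads, hch-1 and dpy-14 had the 2 largest positive differences. hch-1, an astacin protease that lets embryos out of the eggshell (chromosome X, 14696411 to 14699977, minus strand in the WBcel235 annotation), stood at 165, 128, 161 and 205 normalised reads in replicate 2 of wild type without drug, wild type with drug, mutant without drug and mutant with drug. In the other 8 libraries it stood at 0 to 1.19, median 0. It was hardly detected outside replicate 2, and its difference of 6.97 ± 0.36 (adjusted p = 6.43e-08) depends on the pseudocount of 1. The collagen gene dpy-14 (chromosome I, 6843589 to 6845142, plus strand) had 531, 403, 528 and 578 normalised reads in the same order of groups, against 2.24 to 6.76, median 4.47, a difference of 6.59 ± 0.22 (adjusted p = 8.04e-09). dpy-17, another collagen gene, whose loss shortens the body, had 1063, 805, 1033 and 1120.0 against 47.1 to 109.8, median 81.2 (difference 3.66 ± 0.15, adjusted p = 1.82e-08). For all 3 genes every replicate 2 library lay above all 8 others, and the 4 replicate 2 values were within a factor of 2 of each other across genotype and drug.

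Genes first transcribed in the early embryo were higher as a group. Of the 21 measured genes on a list of early zygotic genes, 16 were tested, and 12 of these were called higher (against 25.7% of all genes) and 1 lower, with a median difference of 2.47. pes-10, an early gene of somatic precursor cells, had 107, 116, 101 and 133 normalised reads in replicate 2 and 8.98 to 19.3, median 15, elsewhere (difference 2.93 ± 0.21, adjusted p = 7.74e-07). vet-6, named for very early transcription, had 275, 386, 283 and 431 against 13.5 to 38.8, median 26.2 (difference 3.68 ± 0.23, adjusted p = 2.9e-07). end-1, a GATA factor that sets endoderm fate, had 17.2, 26, 20.9 and 34.5 against 0 to 4.49, median 2.4 (difference 3.37 ± 0.39, adjusted p = 3.44e-05). These groups did not overlap for any of the 3 genes, although end-1 was low throughout and passed the filter only through replicate 2. The 5 members not tested are left out of the count, so the share called is partly set by the filter. The T-box genes tbx-37 (2.95) and tbx-38 (3.13) and the mesoderm homeobox gene ceh-51 (3.17) rose as well, while the member that fell was sdz-24 (-1.58, adjusted p = 6.6e-07). Summed over all 21 measured members, the list stood at 0.0182 to 0.0212% of normalised reads in replicate 2 and 0.00848 to 0.0135% in the other libraries. Its median difference was 2.41 against replicate 1 alone and 2.53 against replicate 3 alone, and between 2.37 and 2.79 within each of the 4 groups.

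Regulators of embryonic cell fate showed the same direction, on a list put together after the values were seen. Of 39 measured, 34 were tested, and 27 were called higher and 0 lower, with a median of 1.42. The neurogenin gene ngn-1 stood at 33.5, 34.4, 45.7 and 54 normalised reads against 0 to 6.1, median 0.988, elsewhere (difference 4.43 ± 0.42, adjusted p = 6.32e-06). The NeuroD relative cnd-1 stood at 27.1, 26, 37.1 and 29.8 against 0 to 2.33, median 1.02 (4.04 ± 0.40, adjusted p = 9.51e-06), and the Otx-type homeobox gene ceh-36 at 46.1, 39.6, 44.8 and 62.4 against 0 to 2.76, median 1.14 (4.58 ± 0.40, adjusted p = 3.41e-06). All 3 neural genes were at or near 0 in every library outside replicate 2 and passed the filter only through it. The share of the list called is therefore shaped by the filter as well as by the choice of genes. Factors of other layers also rose: the Distal-less gene ceh-43 (3.12), the T-box genes tbx-8 (3.56) and tbx-11 (2.75), the Hand gene hnd-1 of mesoderm (2.48), the forkhead gene fkh-2 (4.30) and the MyoD gene hlh-1 (0.87). Of 3 further factors, pha-4 of the pharynx was at 1.04 ± 0.16 (adjusted p = 0.000219), elt-1 of the epidermis at 0.84 ± 0.14 (adjusted p = 0.000519) and elt-2 of the intestine at -0.24 ± 0.15, which did not pass (adjusted p = 0.191). zeel-1, which protects embryos from a sperm-delivered toxin, stood at 87.7, 62.5, 102 and 144 in replicate 2 against 0.92 to 5.91, median 4.42. In whole animals, more cells of a type and more RNA per cell cannot be told apart, here and below.

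**Figure D2:**
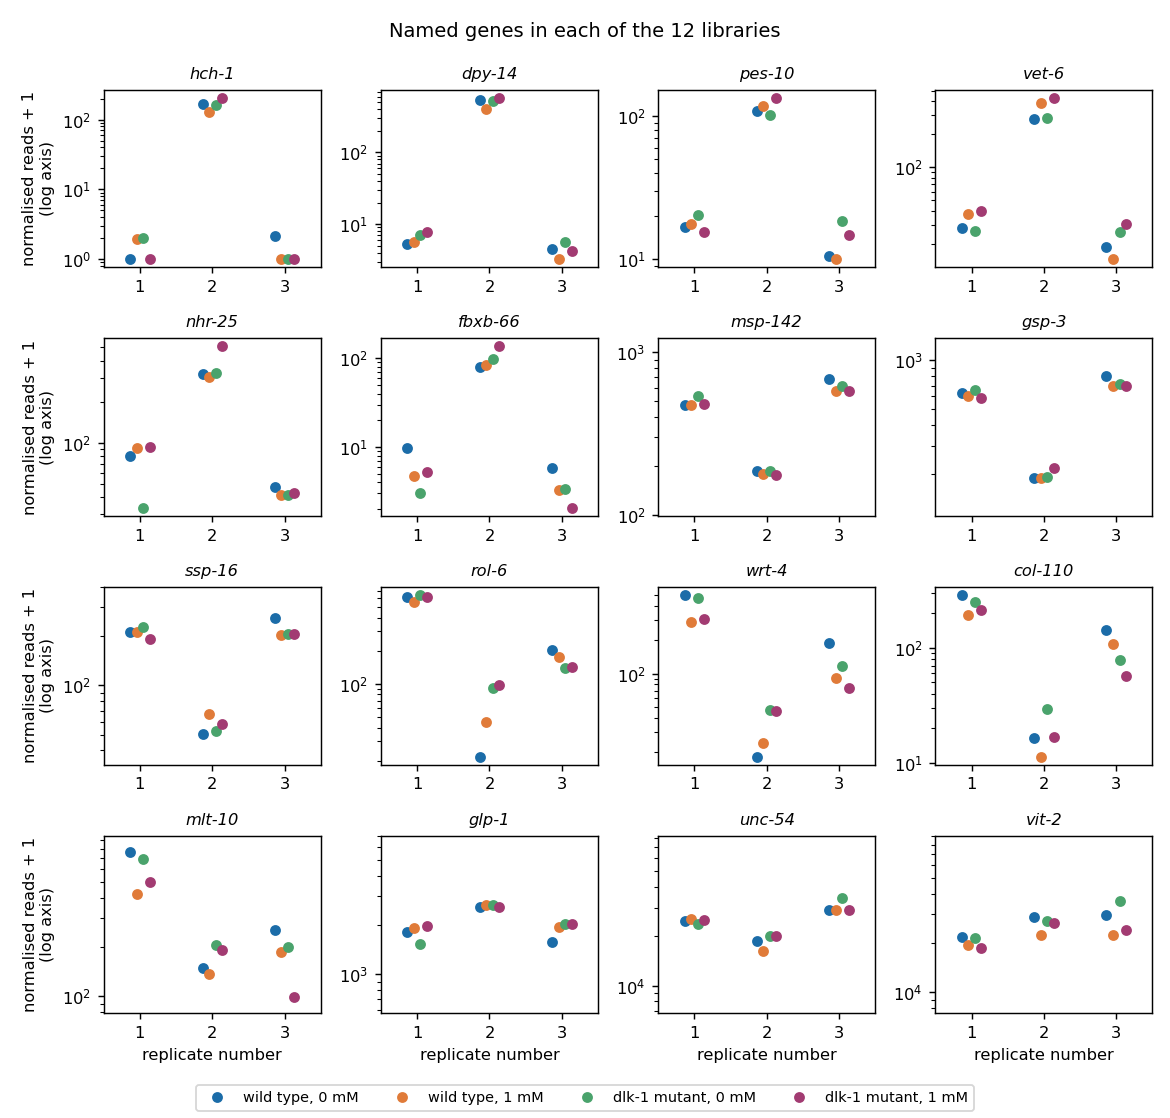
Normalised reads plus 1 (log axis) of 16 genes in each of the 12 libraries, by replicate number, with colour for genotype and fluvastatin dose; each point is 1 library. hch-1, dpy-14, pes-10, vet-6, nhr-25 and fbxb-66 are high in replicate 2, msp-142, gsp-3 and ssp-16 are low in it, and rol-6, wrt-4 and col-110 are on average highest in replicate 1 and lowest in replicate 2.

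The nuclear receptor gene nhr-25, which acts in embryonic epidermis and in moulting, had 316, 301, 326 and 509 normalised reads in replicate 2 against 32.5 to 92.9, median 44.3, in the other libraries (difference 2.70 ± 0.28, adjusted p = 1.89e-05). hbl-1, a hunchback-like factor of embryos and early larvae, had 367, 295, 277 and 314 against 39.6 to 110.4, median 74.9 (2.06 ± 0.19, adjusted p = 6.04e-06). Neither gene overlapped between the sets of libraries. A further list of embryonic epidermis, elongation and hatching genes, also put together after the values were seen, had 14 of 28 called higher and 5 lower (median 0.36), or 18 and 8 with a term for each replicate number. It was mixed: the cadherin gene hmr-1 (0.52) and the spectrin gene sma-1 (0.66) rose, and the attachment genes let-805 (-0.48), mup-4 (-0.46) and vab-10 (-0.35) fell.

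Among genes sharing a name stem, the fbxb genes, which encode F-box proteins with an FBA2-type domain, stood out among the rises. This was seen by listing all 101 stems with at least 10 tested genes, so it is a description and no test. All 93 tested fbxb genes of 113 measured were called higher, 89 of them at least 2-fold (against 4.39% of all genes) and 88 with all 4 replicate 2 libraries above the other 8 (against 20.6%), and their differences ran from 0.59 for fbxb-67 to 4.54 for fbxb-66, with a median of 3.28. fbxb-66 had 77.8, 83.3, 98.1 and 135 normalised reads in replicate 2 against 1.06 to 8.7, median 3. It passed the filter only through replicate 2, so the shares of the family called are partly set by the filter. Summed over all 113 measured members, tested or not, replicate 2 held 3447, 3594, 3715 and 4529 normalised reads in the order of groups above. The other 8 libraries held 326.5 to 602.8. The family lies largely on chromosome II, with 55 of the 93 genes. Near matches in value were looked for only among genes averaging 50 or more normalised reads, and fbxb-66 averaged 35.3. Whether members of the family share reads was therefore not tested. Related fbxc genes more often rose, with 27 of 41 higher and 7 lower (median 1.02). These are 65.9% and 17.1%, against 25.7% and 29.1% of all genes. Among the largest rises of all was fbxc-51 (372, 348, 419 and 499 against 9.49 to 33.8, median 18.3, difference 4.41 ± 0.21).

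The sdz genes, named for zygotic expression that depends on the maternal factor SKN-1, had 22 of 28 tested members higher and 3 lower (median 3.09). sdz-30 (206, 193, 211 and 258 against 7.85 to 19.3, median 12.63) and sdz-28 (156, 183, 177 and 216 against 5.28 to 21.2, median 12.57) were among the largest rises with a mean of at least 50 normalised reads. The other named genes in that set were the chitinase gene cht-1 (3.96 ± 0.16), the arrestin-domain gene arrd-1 (4.49 ± 0.28), the linker histone-like gene hil-7 (4.48 ± 0.55), the C-type lectin genes clec-266 (4.46 ± 0.16) and clec-196 (3.83 ± 0.38), F23F12.9, listed as zip-8 in the reference (5.20 ± 0.34), C08F1.10 (5.54 ± 0.29), C08F1.6 (4.09 ± 0.28), Y82E9BR.17 (5.53 ± 0.34) and Y71A12B.11 (3.94 ± 0.22). cht-1 was the most abundant of these, at 1694, 1824, 2138 and 3009.8 normalised reads against 98.5 to 179, median 125. C08F1.10 (chromosome II, 1785262 to 1786309, minus strand) and C08F1.6 (chromosome II, 1787217 to 1788187, minus strand) are close together. Exons of cht-1 overlap slcf-2 and those of clec-266 overlap kqt-1, and a kit that does not mark strand cannot part their reads.

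Histone genes moved little as a group, with 11 of 71 tested called higher and 5 lower (median 0.20), or 27 and 5 with a term for each replicate number. Single variants moved far. The linker histone gene his-24 rose to 857, 663, 1050.3 and 1127 normalised reads from 95.4 to 177, median 133 (difference 2.75 ± 0.12, adjusted p = 2.64e-08). his-70, an H3.3-like gene, fell to 10.9, 11.5, 18.1 and 14 from 64.4 to 124, median 89.6 (-2.65 ± 0.18, adjusted p = 5.36e-07). The replication-dependent histone genes are near copies and may share reads, and his-32 at 1.20 ± 0.27 is uncertain for that reason.

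Of 34 oocyte and eggshell genes, 14 were called higher and 1 lower (median 0.22). That share, 41.2%, is the same as among the fifth of all genes with the highest means, of which 41.2% were called higher. Few members moved far: cav-1, a caveolin of germline and embryo, had 927, 897, 975 and 1097 normalised reads against 159 to 246, median 195 (2.31 ± 0.11, adjusted p = 3.88e-08), and the P granule gene meg-2 had 576, 629, 604 and 658 against 257 to 444, median 386 (0.78 ± 0.11, adjusted p = 0.00018). The member that fell was pqn-74 (-1.85 ± 0.26), which is also on the pharynx list. The yolk receptor gene rme-2 and the eggshell gene cbd-1 did not pass, at 0.21 ± 0.15 (adjusted p = 0.274) and 0.18 ± 0.15 (adjusted p = 0.336). With a term for each replicate number 31 of the 34 were called higher, rme-2 (adjusted p = 0.000472) and cbd-1 (adjusted p = 0.00137) among them. The size depended on the reference: the list's median was 0.40 above replicate 1 and 0.03 above replicate 3, and its summed level was 1.37 to 1.39% of normalised reads in replicate 2 against 1.06 to 1.36% elsewhere. Without the replicate 2 library of wild type without drug, or without that of the mutant without drug, 9 members were called higher. oma-2, an oocyte maturation factor, had 4939, 5238, 5129 and 5259 normalised reads against 3671 to 4981, median 4231, so the sets overlapped (0.28 ± 0.09, adjusted p = 0.0277), and the call was lost without any 1 of the 4 replicate 2 libraries or without replicate 1 of wild type with drug (adjusted p = 0.0531 to 0.0813).

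Of 44 genes of germline mitosis and meiosis, 24 were called higher and 0 lower (median 0.22), or 36 and 0 with a term for each replicate number. The first count is 54.55%, against 41.2% of the fifth of all genes with the highest means, in which glp-1, lst-1 and mcm-5 lie. The size depended on the reference. The list's median was 0.34 above replicate 1, with 37 called higher and 0 lower (69% of all genes were called in that comparison). It was 0.11 above replicate 3, with 21 called higher and 5 lower (56.7% of all genes). Of the 44, 28 were lower in replicate 1 than in 3, against 16% of all genes. In fits to 6 libraries, 6 were called higher without drug, 11 with drug, 11 in wild type and 5 in the mutant. glp-1, the Notch receptor that keeps germline stem cells dividing, had 2559, 2647, 2662 and 2558 normalised reads against 1526 to 2031, median 1936 (0.50 ± 0.08, adjusted p = 0.000332). lst-1, its target in stem cells, had 4658, 5084, 4947 and 5302 against 3358 to 4235, median 3652 (0.42 ± 0.07, adjusted p = 0.000331), and the replication helicase gene mcm-5 had 4392, 4876, 4689 and 4728 against 3197 to 3975, median 3417 (0.40 ± 0.07, adjusted p = 0.000695). None of the 3 overlapped between the sets, although the differences were under 2-fold. Without the replicate 2 library of wild type with drug, or of the mutant without drug, 15 members were called higher. Exons of glp-1 overlap ZK507.1.

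The vitellogenin genes, which encode the yolk proteins that the intestine of adult hermaphrodites sends to oocytes, did not part the libraries. None of 6 passed (median 0.16), and 3 did with a term for each replicate number. vit-2 stood at 29038, 22429, 27444 and 26707 normalised reads in replicate 2 and 18734 to 36139.8, median 22114, elsewhere (0.15 ± 0.14, adjusted p = 0.396), so it was abundant in all 12 libraries. vit-6 stood at 0.04 ± 0.16 (adjusted p = 0.832). The median vitellogenin was 0.42 above replicate 1 and 0.11 below replicate 3, and replicate 1 was below replicate 3 for all 6 (median -0.57).

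Sperm genes were lower in replicate 2 in all 4 groups. All 35 major sperm protein genes were called lower, against 29.1% of all genes, with a median of -1.49 and a range of -2.29 to -1.28, and all 35 lay below the other 8 libraries without overlap. msp-142 (chromosome II, 5797927 to 5798310, plus strand), 1 of the many near-identical genes for the cytoskeletal protein of the crawling sperm, had 187, 178, 187 and 175 normalised reads against 471 to 682, median 556 (-1.58 ± 0.10, adjusted p = 3.34e-07). Members of this family may share reads, so their number is not a number of independent observations. Their summed level was 0.105 to 0.115% of normalised reads in replicate 2 and 0.273 to 0.386% in the others.

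Sperm genes outside that family fell by a like amount. Of 70 tested, 59 were called lower and 3 higher (median -1.70), and 60 were called lower against replicate 1 alone and 60 against replicate 3 alone. gsp-3, a phosphatase of sperm, had 189.9, 189, 191 and 217 against 583 to 795, median 672 (-1.76 ± 0.09, adjusted p = 4.89e-08). ssp-16, of a sperm-specific family, had 49.7, 65.6, 51.4 and 56.8 against 193 to 258, median 208 (-1.92 ± 0.11), and the peptide gene nspd-1 had 146, 143, 135 and 131 against 334 to 430.2, median 406 (-1.48 ± 0.09). spe-19, needed for sperm activation, fell further (2.71, 3.12, 2.86 and 4.66 against 15.7 to 40, median 23.6, -2.56 ± 0.28). In each of these 4 genes all 4 replicate 2 libraries lay below all 8 others. The summed level of the list was 0.0876 to 0.0905% of normalised reads in replicate 2 and 0.234 to 0.261% elsewhere, with no overlap in the plot of summed shares. The 3 that rose were spe-39 (0.28), which also acts outside the germline, Y51F10.10 (0.28) and tag-347, which is spe-44 in the reference, the transcription factor that starts sperm gene expression (0.34 ± 0.09, 297, 283, 312 and 324 against 204 to 303, median 231). fog-3, which commits germ cells to sperm, fell (-0.98 ± 0.21, adjusted p = 0.00262). Markers of the male tail and male neurons gave no single direction, with 2 of 9 tested higher and 2 lower and a summed level of 0.0125 to 0.0134% against 0.0104 to 0.0129%.

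**Figure D3:**
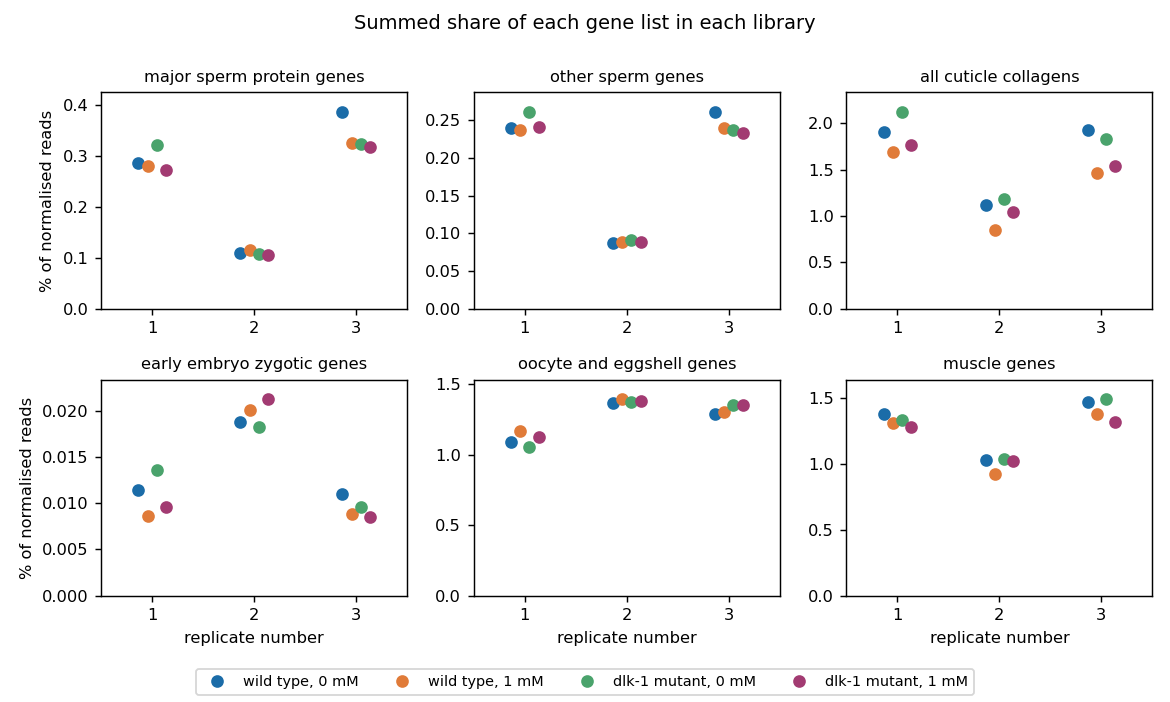
Summed normalised reads of 6 gene lists as a percentage of all normalised reads, in each of the 12 libraries by replicate number, with colour for genotype and fluvastatin dose. The sperm lists sit at 0.105 to 0.115% and 0.0876 to 0.0905% in replicate 2, below all other libraries, and the early embryo list at 0.0182 to 0.0212%, above all others.

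Cuticle collagens formed the largest group of falls. Of 180 measured, 144 were tested, and 114 were called lower and 7 higher (median -1.60), with all 4 replicate 2 libraries below the other 8 for 92 (against 17.6% of all genes). Their summed level was 0.843 to 1.18% of normalised reads in replicate 2 and 1.46 to 2.12% elsewhere. Among 16 tested collagens that mark the L4 stage and the adult, 15 fell (median -2.22). rol-6, whose mutation twists the cuticle, had 20.8, 43.7, 90.5 and 96.9 normalised reads in replicate 2 against 138 to 643, median 378 (-2.53 ± 0.64, adjusted p = 0.00854). lon-3, a collagen that limits body length, had 23.5, 33.3, 74.3 and 55.9 against 109 to 566, median 363 (-2.74 ± 0.56, adjusted p = 0.00279), and col-110 had 15.4, 10.4, 28.6 and 15.8 against 56 to 285, median 167 (-3.06 ± 0.45, adjusted p = 0.000357). In these 3 genes the sets did not overlap, and for rol-6 and lon-3 the 2 wild-type replicate 2 libraries were lower than the 2 of the mutant. bli-1, which builds the struts of the adult cuticle, had 23.5, 32.3, 81.9 and 61.5 against 83.5 to 562, median 306 (-2.38 ± 0.67, adjusted p = 0.0146), and its call was lost without the replicate 2 library of wild type without drug (-2.01, adjusted p = 0.0633) or with drug (-2.15, adjusted p = 0.0513). It was also lost with limma-voom (adjusted p = 0.0653). Without all replicate 1 libraries the calls of bli-1 (-1.35, adjusted p = 0.124), rol-6 (-1.58, adjusted p = 0.114) and lon-3 (-1.95, adjusted p = 0.0754) were lost. Exons of bli-1 overlap dph-2, and those of col-110 overlap nspg-10.

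The fall was not shared by every collagen. col-19, the standard marker of the adult cuticle, was abundant in all libraries, with 3716, 3070.0, 3689.8 and 3305 normalised reads in replicate 2 and 3552 to 5361, median 4193, elsewhere, and its difference was -0.30 ± 0.11 (adjusted p = 0.0378). That call was lost without any 1 of the replicate 2 or replicate 3 libraries (adjusted p = 0.0566 to 0.123). Besides dpy-14 and dpy-17, the collagens called higher were col-121 (1.87), col-158 (1.34), col-95 (1.24), col-116 (1.14) and col-135 (0.26). Of 6 furrow collagens, which form the ring-like furrows and precede the others in each moult, dpy-9 (-2.34 ± 0.40) and dpy-8 (-2.02 ± 0.39) fell and 4 did not pass. dpy-7, of the same group, stood at 179, 82.2, 153 and 144 against 79.1 to 398, median 224 (-0.48 ± 0.53, adjusted p = 0.466, or 0.0472 with a term for each replicate number).

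Among L4 and adult collagens replicates 1 and 3 were far apart as well. The median L4 and adult collagen was 1.22 higher in replicate 1 than in 3, and 10 of the 16 were called higher in replicate 1 and 1 lower, against 18.6% and 16% of all genes. Replicate 2 was lower than replicate 1 alone by a median of 2.87, with 15 of 16 called (69% of all genes were called in that comparison), and lower than replicate 3 alone by 1.59, with 6 called (56.7% of all genes). rol-6 averaged 607 normalised reads in replicate 1, 164 in replicate 3 and 63 in replicate 2. Over all 144 collagens the median difference was -1.88 against replicate 1 and -1.30 against replicate 3. The furrow collagens differed in order, with a median 1.04 below replicate 1 and 0.44 above replicate 3, and col-19 averaged 3737, 3445 and 4790 normalised reads in replicates 1, 2 and 3. The 35 major sperm protein genes were lower in replicate 1 than in 3 by a median of 0.31.

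Hedgehog-related genes, which nematodes use in the apical matrix and the moult, fell as a group. Of 36 tested, 25 were called lower and 0 higher (median -1.37), and without all replicate 1 libraries 14 were. In fits to 6 libraries it was 15 without drug, 8 with drug and 2 in the mutant. The list's median was 2.13 below replicate 1 and 0.73 below replicate 3. Replicates 1 and 3 were far apart here too: 27 of the 36 were called higher in replicate 1 than in 3 (median 1.38), against 18.6% of all genes. wrt-4 had 17.2, 22.9, 46.7 and 45.7 normalised reads in replicate 2 against 72.9 to 502, median 237 (-2.71 ± 0.60, adjusted p = 0.00426). grl-5 had 15.4, 12.5, 38.1 and 34.5 against 59.2 to 313, median 203 (-2.78 ± 0.59, adjusted p = 0.00337), and wrt-6 had 14.5, 10.4, 20 and 16.8 against 28.5 to 279, median 114 (-2.69 ± 0.57, adjusted p = 0.0033). None of the 3 overlapped between the sets. Of 26 patched-related genes, whose products resemble the hedgehog receptor, 18 were lower and 4 higher (median -0.49). ptr-18 (-1.60 ± 0.58, adjusted p = 0.041), ptr-16 (-1.42 ± 0.54, adjusted p = 0.0467) and ptr-17 (-2.48 ± 0.82, adjusted p = 0.0281) were near the threshold, and calls were lost when single libraries were left out (adjusted p = 0.0598 to 0.127 for ptr-18, 0.0622 to 0.116 for ptr-16 and 0.0505 to 0.128 for ptr-17).

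Moulting and apical matrix genes were divided. Of 47 tested, 16 were called lower and 7 higher (median -0.41), or 29 and 12 with a term for each replicate number. The astacin protease gene nas-38 fell (9.04 to 41 normalised reads against 34.9 to 237, -2.04 ± 0.55, adjusted p = 0.0115), a call lost without replicate 2 of wild type without drug (-1.68, adjusted p = 0.0573) and with limma-voom (adjusted p = 0.0534). fbn-1, a fibrillin-like matrix protein of the embryo and the moult, rose to 292, 294, 388 and 598 from 19 to 110.5, median 48.4 (2.99 ± 0.53, adjusted p = 0.00119). noah-1, of the same matrix, rose to 602, 473, 646 and 796 from 117 to 489.7, median 225 (1.40 ± 0.44, adjusted p = 0.024), with overlap, and its call was lost without replicate 2 of the mutant without drug (1.30, adjusted p = 0.0789) or with drug (1.23, adjusted p = 0.0787). mlt-10, a moulting gene, stood at 147, 135, 205 and 190.1 against 98.2 to 759, median 337 (-0.92 ± 0.54, adjusted p = 0.176, or 0.00704 with a term for each replicate number). Replicates 1 and 3 differed widely here, by 1.73 for mlt-10, 1.44 for noah-1 and 1.65 for fbn-1, and 36 of the 47 were called higher in replicate 1 than in 3. Exons of fbn-1 overlap upp-1, and those of mlt-10 overlap T27A1.3 and lips-7.

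Of 13 regulators of the moulting clock, 3 were called higher and 2 lower, or 3 and 5 with a term for each replicate number. Besides nhr-25, the receptor gene nhr-23, which opens each moult, was higher (767, 837, 826 and 825 against 490.1 to 709, median 663, 0.38 ± 0.08, adjusted p = 0.00293). nhr-85 was lower (-0.79 ± 0.20, adjusted p = 0.00537). The Period relative lin-42 stood at -0.85 ± 0.42 (adjusted p = 0.117, or 0.000986 with a term for each replicate number), and it passed without replicate 3 of the mutant with drug (-1.05, adjusted p = 0.0346), as did mlt-10 (-1.20, adjusted p = 0.036). Of 14 heterochronic genes, which time the larval stages, 6 were higher and 2 lower. After hbl-1 came lin-66 (0.64 ± 0.09), and lin-28, which acts in early larvae and the germline, rose by 0.24 ± 0.06 (adjusted p = 0.00733). lin-29, which starts the switch to adult epidermis, fell slightly (-0.44 ± 0.14, adjusted p = 0.0236), and daf-9, which makes a steroid hormone, fell more (-1.11 ± 0.17, adjusted p = 0.000295). The lin-28 call was lost without replicate 2 of the mutant without drug (0.18, adjusted p = 0.0529), and that of lin-29 without replicate 2 of wild type without drug (-0.40, adjusted p = 0.0893) or of the mutant with drug (-0.32, adjusted p = 0.121).

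**Figure D4:**
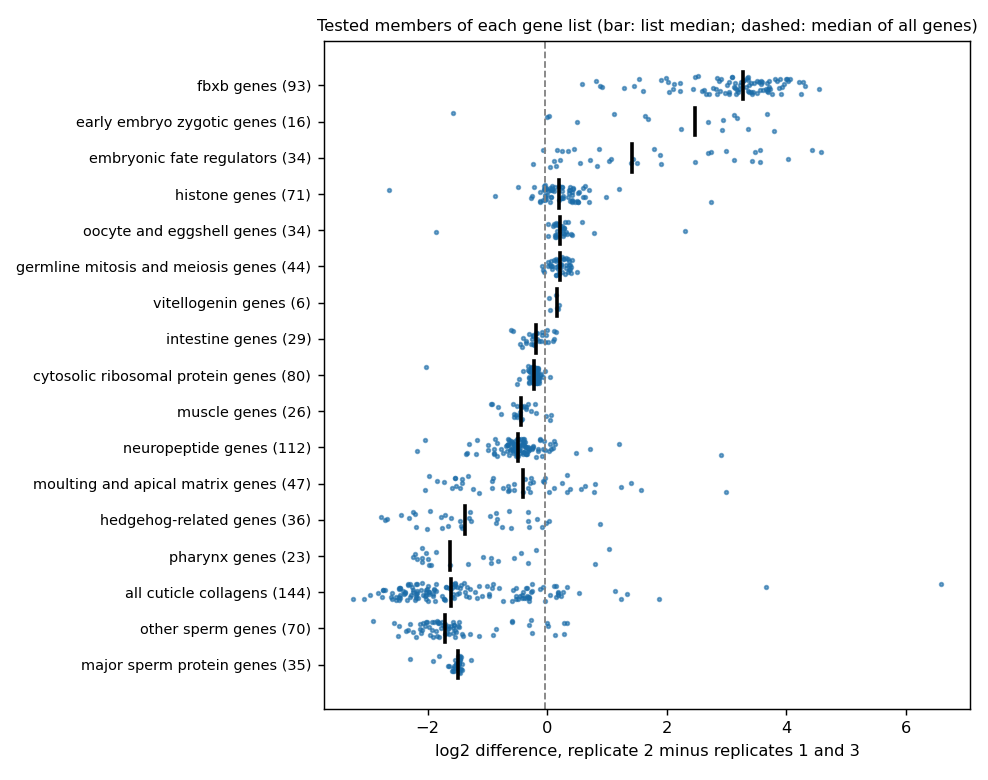
Log2 difference of replicate 2 from replicates 1 and 3 for each tested gene of 17 lists, with the number tested in brackets; each point is a gene, the bar is the list's median and the dashed line is the median of all genes (-0.0369). The fbxb, early embryo and embryonic fate lists lie to the right (medians 3.28, 2.47 and 1.42), and the sperm, collagen, pharynx and hedgehog-related lists lie to the left (medians -1.49 to -1.37 for the major sperm proteins and the hedgehog-related genes, and -1.70 to -1.60 for the others).

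The pharynx list fell with the cuticle, and its steepest members were genes of the cuticle that lines the pharynx. Of 23 tested, 19 were called lower and 2 higher (median -1.62), and without all replicate 1 libraries 11 were lower. In fits to 6 libraries, 6 were lower with drug and 4 in the mutant. abu-11 had 26.2 to 59.6 normalised reads in replicate 2 against 67.6 to 292 (-2.24 ± 0.46, adjusted p = 0.00269), and abu-1 had 48.9 to 105 against 141.6 to 506 (-2.20 ± 0.39). The genes of this family resemble each other and may share reads. The pharyngeal myosin gene myo-2 fell less (754, 507, 639.9 and 877 against 998 to 1740.5, median 1329, -0.93 ± 0.17, adjusted p = 0.00102), and the 2 that rose were the transcription factor genes pha-4 (1.04) and ceh-22 (0.80). Among 30 astacin protease genes with nas names 17 fell and 1 rose (median -0.67), a count that leaves out hch-1. Among 24 cuticlins, which are matrix proteins of the cuticle, 5 fell and 4 rose, or 9 and 4 with a term for each replicate number. The rising cuticlins were low genes: cutl-9 (38.5 to 47.9 against 1.12 to 6.44, 3.51 ± 0.35), cutl-2 (3.07 ± 0.29), cutl-25 (2.64 ± 0.26) and cutl-16 (1.14).

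Genes of differentiated body tissues were mostly lower, by smaller amounts. Of 26 muscle genes, 21 were called lower and 0 higher (median -0.44). The body wall myosin gene unc-54 had 18762, 16317, 20008 and 19987 normalised reads against 23866 to 34340.0, median 27202 (-0.55 ± 0.10, adjusted p = 0.00109), and myo-3 had 802, 704, 890.3 and 982 against 1401 to 1818, median 1593 (-0.93 ± 0.09, adjusted p = 1.17e-05), in both cases without overlap. Of 37 neuronal genes, 22 fell and 3 rose (median -0.50). The monoamine transporter gene cat-1 fell (-1.02 ± 0.30, adjusted p = 0.0131), and the synaptic gene rab-3 fell by a little (-0.38 ± 0.14, adjusted p = 0.0362). Both calls were lost without single libraries, cat-1 without either wild-type replicate 2 library (adjusted p = 0.0612 to 0.0638) and rab-3 without any 1 of 7 (adjusted p = 0.0558 to 0.164). The 3 that rose were ceh-36, the tubulin gene tbb-4 (1.37 ± 0.25) and unc-119 (0.58). Of 112 neuropeptide genes, 74 fell and 3 rose (median -0.49), led by the insulin-like gene ins-37 (9.95 to 15.2 against 49.6 to 66.2, -2.17 ± 0.17) and by nlp-4 (32.6 to 50.6 against 150.4 to 223, -2.05 ± 0.11), while the insulin-like gene ins-2 rose from 0 to 2.33 to 9.37 to 17.7 (2.92 ± 0.43).

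Of 29 intestine genes, 13 were called lower and 0 higher (median -0.18). ifb-2, an intermediate filament of the gut lumen, had 1744, 1875, 1841 and 2008 normalised reads against 2673 to 2929, median 2870.4 (-0.61 ± 0.05, adjusted p = 2.94e-06), and the microvillar actin gene act-5 fell too (-0.57 ± 0.10). The gut esterase gene ges-1 did not pass (630.2, 883, 513 and 625 against 482 to 700.3, median 565, 0.16 ± 0.11, adjusted p = 0.26). Seam cell and epidermis genes were mixed, with 6 of 24 higher and 5 lower (median -0.16), or 6 and 12 with a term for each replicate number. The first 2 counts are 25% and 20.8%, against 25.7% and 29.1% of all genes. The 6 rises included transcription factors that also act in embryos: ceh-16 (1.98 ± 0.32), the GATA genes egl-18 (0.96 ± 0.11) and elt-6 (0.95 ± 0.16), and elt-1. Vulva, uterus and gonad sheath genes were mixed as well, with 6 of 25 higher and 8 lower (24% and 32%, near the same shares of all genes). egl-17, an FGF of the developing vulva, fell (4.66 to 11.5 against 6.34 to 22.5, -1.08 ± 0.27, adjusted p = 0.0059), and the Delta-type ligand gene lag-2 (1.42 ± 0.34), the cadherin gene cdh-3 (1.47 ± 0.30) and the receptor gene nhr-67 (1.73 ± 0.32) rose.

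Genes for growth and energy differed by small amounts. Of 80 cytosolic ribosomal protein genes 35 were called lower and 0 higher (median -0.21), or 76 and 0 with a term for each replicate number. Their median lay 0.07 below replicate 1 and 0.34 below replicate 3, and 69 of them were themselves lower in replicate 1 than in 3. rpl-42 stood apart (8.39 to 11.5 normalised reads against 31.4 to 53.9, -2.02 ± 0.20). Of 32 respiratory chain genes 9 fell and 0 rose (median -0.17), and the share that fell, 28.1%, is near the 29.1% of all genes. With a term for each replicate number 31 fell and 0 rose, against 35.7% of all genes lower in that fit. The falls were led by ucr-2.2 (-0.38 ± 0.11, lost without replicate 2 of wild type without drug, -0.35, adjusted p = 0.0642) and gas-1 (-0.34 ± 0.04).

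Of the stress and defence lists, heat shock and cytochrome P450 genes showed little shared shift. Fasting, immune effector and C-type lectin genes more often fell, by small amounts (50%, 59.1% and 37.5% lower, against 29.1% of all genes). Of 22 heat shock genes 2 fell and 0 rose (median -0.09), hsp-12.3 (-0.77 ± 0.23, adjusted p = 0.0153) and hsp-43 (-0.21 ± 0.07, adjusted p = 0.0244), or 6 and 1 with a term for each replicate number. Both calls were lost without replicate 2 of wild type without drug (adjusted p = 0.0699 and 0.0995) or with drug (adjusted p = 0.0536 and 0.107). Of 22 fasting genes 11 fell and 2 rose (median -0.29), led by the lysosomal lipase genes lipl-1 (16.3, 6.25, 10.5 and 6.52 against 16.6 to 141, median 48.7, -2.32 ± 0.33) and lipl-2 (-1.52 ± 0.21). Of 22 immune effector genes 13 fell and 1 rose (median -0.33), led by irg-1 (12.7, 31.2, 19 and 24.2 against 38 to 169, median 77.8, -1.87 ± 0.33). Of 128 C-type lectin genes 48 fell and 9 rose (median -0.29), with clec-153 lowest (19 to 26.1 against 92.6 to 148, -2.48 ± 0.14). Of 62 cytochrome P450 genes 12 rose and 9 fell (median -0.05), or 16 and 14 with a term for each replicate number, led by the falls of cyp-37B1 (-2.11 ± 0.39), cyp-35B2 (-1.64 ± 0.27) and cyp-32B1 (-1.47 ± 0.23). cyp-35B2 stood at 0, 38.5, 0 and 14.9 normalised reads in replicate 2 and 0.87 to 126, median 25.3, elsewhere, so both replicate 2 libraries without drug were at 0 and its fitted difference depends on the pseudocount.

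By nuclear chromosome, genes at least 2-fold lower made up 20.3% of tested genes on IV, 16.06% on II, 15.99% on I, 14.1% on V, 10.9% on III and 6.99% on X. Genes at least 2-fold higher made up 7.81% on II, 5.65% on X, and 2.94 to 3.62% on the other nuclear chromosomes, and 0 of 14 tested mitochondrial genes were 2-fold higher or lower. The plot by chromosome shows X with the lowest share of falls among nuclear chromosomes and II, which carries 55 of the 93 tested fbxb genes, with the most rises. No test of these shares was made, since neighbouring members of a family are not independent.

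**Figure D5:**
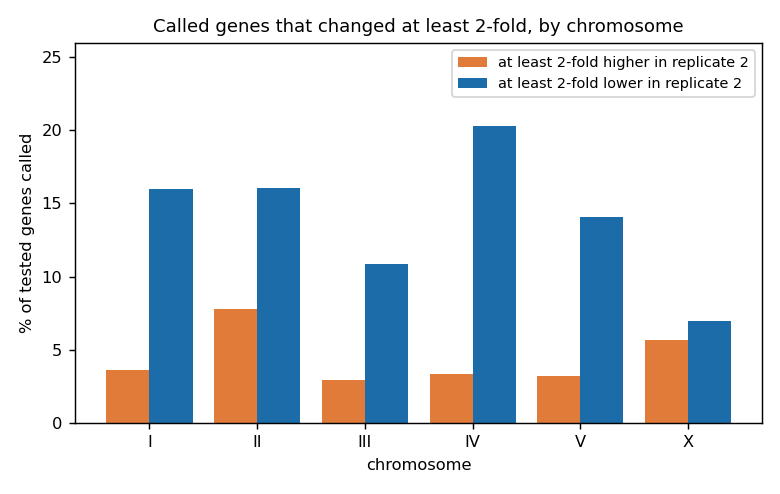
Share of the tested genes of each nuclear chromosome that were called and at least 2-fold higher (orange) or lower (blue) in replicate 2. Among these, chromosome IV has the highest share of falls (20.3%), X the lowest (6.99%), and II the highest share of rises (7.81%).

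Whether the replicate 2 difference depended on the drug was asked with an interaction term. No gene passed with limma, edgeR, DESeq2 or limma-voom, and 225 genes (1.45%) had an unadjusted p under 0.05 with limma. These fits held no term for the difference between replicates 1 and 3. That difference stays in the residual spread, so a dependence on the drug could be missed. With a term for each replicate number the count was also 0 with limma. The list medians within groups were -1.59 and -1.37 for the major sperm protein genes of wild type without and with drug, and -1.55 and -1.45 for the mutant. For the fbxb genes the medians were 2.94, 3.40, 3.16 and 3.40 in the order of groups above. They lay further apart for other lists, at -3.25 and -2.71 for the L4 and adult collagens and -0.25 and -1.13 for the furrow collagens in wild type without and with drug, and at -1.45 and -0.87 for the pharynx genes in the mutant. With replicate 1 or replicate 3 left out altogether, 38 and 55 genes passed.

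The difference by genotype was also called for 0 genes with each of these 4 tools, again in fits without a term for replicates 1 and 3. In the limma fit 223 genes (1.44%) had an unadjusted p under 0.05, against 1037 with a term for each replicate number. With a term for each replicate number 64 passed (0.412%), and all 64 had the higher, mostly less negative, replicate 2 difference in the mutant. Of these, 36 were cuticle collagens, 62 had a negative replicate 2 difference in that fit, and wrt-10 and noah-2 a positive one (adjusted p = 0.00127 and 0.000119, against 0.204 and 0.0524 without the term). Their median replicate 2 difference was -2.76 in wild type and -1.48 in the mutant. grl-16, a hedgehog-related gene, had 88.6, 87.4, 239 and 276 normalised reads in replicate 2, and col-97 had 218, 258, 511 and 592, so both wild-type libraries were lower than both mutant ones. The other 8 libraries held 481 to 1234, median 915, for grl-16 and 975 to 2384, median 1842, for col-97. Over all 144 collagens, the median was -2.02 in wild type and -1.19 in the mutant. The number of calls hung on single libraries: it was 0 without replicate 3 of wild type with drug, 3 without replicate 2 of wild type with drug, 3 without replicate 2 of the mutant with drug, 13 without replicate 1 of wild type with drug, and 25 to 115 without each of the other 8. In fits without replicate 1 or without replicate 3 altogether it was 190 and 358. The medians were -1.74, -1.62, -1.66 and -1.65 for the other sperm genes and 2.79, 2.37, 2.37 and 2.58 for the early embryo genes in the order of groups above, and their difference by genotype was not tested.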

How the data were processed

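RNA from whole animals was sequenced in 12 libraries (TruSeq kit without strand marking, 50 bp single reads, 1 lane, per the labels' protocols). Bowtie and DESeq2 are named without versions or roles in the submitters' processing notes, and no source used here gives the genome build. The authors deposited 1 table of normalised signal for 34873 transcript models and loci, in which each library's read counts had been divided by a common factor. All values were whole reads times such a factor (100% within 0.01 read), so reads could be recovered. Median-of-ratios factors computed from the recovered reads differed from the deposited ones by at most 1.14e-10 in relative terms.

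Models were reduced to 30301 sequence names by keeping the most abundant model, by its mean over all columns, and 29778 matched the WBcel235 annotation of Ensembl release 115, the source of coordinates and overlaps. Near-identical values (no library more than 5% apart, among genes averaging 50 or more) were found for 287 genes. The 15529 genes that reached 10 in 3 or more libraries were tested as log2(value + 1) with limma 3.58.1 (trend, robust, R 4.3.3), with group as block, 7 residual degrees of freedom, and Benjamini-Hochberg adjustment at 0.05. Fold changes of low genes are understated on this scale. edgeR 4.0.16, DESeq2 1.42.0 and limma-voom on recovered reads were alternatives, and called 8483, 8346 and 8273 genes. Exons of hlh-1, tbx-38, vab-10, ceh-16, vit-2, dpy-8, nhr-85, lin-28, lin-29, rab-3, gas-1 and col-115 overlap a neighbouring gene in the annotation, and without strand their reads may be shared. The main fit and the drug interaction fit were also run on simulated counts. These held no difference between replicates 1 and 3 and far fewer changed genes than were called here, so they do not cover those features of the data.

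Deviations from group means correlated in all 18 pairs of same-numbered libraries (0.555 to 0.887). The numbers were therefore taken to pair the libraries, from these data and not from a label, and a fit with a term for each replicate number (replicate block, 6 residual degrees of freedom) is given where it changes the call of a named gene or moves a list's count by over 1.5 times.

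The libraries compared, the 32 gene lists (1665 entries, 5 not found) and the rule for named genes were chosen with earlier results of these data known, and 2 more lists were added after values were seen, so no p-value is given for a list. The rule took up to 15 rises and 15 falls among called genes with a mean of at least 50 normalised reads, replicate 2 outermost in all 4 groups and no near-identical gene, up to 3 called members per list, and a set of stage and tissue markers. Some genes it takes are not reported here. Genes named outside it were chosen after their values were seen: the embryonic fate regulators, zeel-1, the fbxb, fbxc and sdz families, members given only as examples in brackets, and grl-16, col-97, wrt-10 and noah-2.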

Additional observations from a re-analysis of the deposited data

Results flagged for a closer look

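The replicate 2 difference differed between wild type and dlk-1 mutant, by the interaction test with a term for each replicate number, in 64 genes (1037 at an unadjusted p under 0.05), and in 0 genes without that term. All 64 had the more positive difference in the mutant. With single libraries left out the number ran from 0 to 115. Whether the mutant and wild-type animals of a replicate were of the same stage when collected was not tested.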

How the results depend on the processing

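The count of genes called between replicate 2 and the others (8515) lay between 7040 and 8805 under other pseudocounts, filters, scalings and tools, without the group term or without replicate 1. It was 10414 with the replicate block, which kept 8514 of the 8515 calls, and 10718 without replicate 3. It fell to 4490 in the 6 libraries without fluvastatin, 5159 in those with it, 5812 in wild type and 3932 in the mutant, where fewer libraries were compared. With 1 library left out it was 6844 to 8873. The count between replicates 1 and 3 (5385) was 4066 to 5834 under other settings, 4822 with no replicate block, and 3935 to 5319 with 1 library left out. The differences by treatment and by genotype were called for 0 genes with any 1 library left out (0 to 0). By treatment the count was 0 with the replicate block, 38 without replicate 1 and 55 without replicate 3. By genotype it was 64 with the replicate block, 190 without replicate 1 and 358 without replicate 3. With the replicate block and 1 library left out, an alternative chosen after seeing the data, it was 0 to 115, of which 96 came without replicate 1 of wild type without drug, 25 without its replicate 2, 51 without its replicate 3, 13, 3 and 0 without replicates 1, 2 and 3 of wild type with drug, 33, 25 and 96 without those of the mutant without drug, and 115, 3 and 69 without those of the mutant with drug. For named genes, 3802 results kept their direction and side of the threshold, 250 lost the call, 32 gained it and 11 changed sign. The sign changes were all in genes without a call at the main setting, and cbd-1 was called lower without replicate 1 (adjusted p = 0.0394). Without replicate 1 and without replicate 3 in turn, the log2 difference was -0.083 and 0.45 for cbd-1, 0.37 and -1.34 for dpy-7, -0.060 and 0.48 for rme-2, -0.069 and 0.37 for vit-2, -0.076 and 0.49 for vit-5, and -0.22 and 0.31 for vit-6, and all 6 passed without replicate 3. vit-6 also changed sign in the libraries without fluvastatin (-0.013) and ran from -0.026 to 0.14 with 1 library left out. The list counts kept within 1.5 times in 287 results and moved further in 32. Among genes that reached 50 in 3 or more libraries, 5 early embryo genes and 16 embryonic fate regulators were called higher, where fewer genes were tested. Low genes are limited by counting error, since 1 normalised read is about 1 read.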

Other observations

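Among the 15 largest falls with a mean of at least 50 normalised reads, 6 were noncoding loci at the ends of chromosomes I and II (2L52.2, cTel52S.1, 2RSSE.5, 2RSSE.7, cTel29B.1 and cTel29B.2). They come in pairs with the same coordinates on opposite strands: 2L52.2 with cTel52S.1, 2RSSE.5 with 2RSSE.7, and cTel29B.1 with cTel29B.2. A kit that does not mark strand cannot part the reads of a pair, so the 6 are not separate falls. The values of all 6 loci ran in parallel, and different pairs may share reads too. In replicate 2 they stood at 44.3 to 51.5, 0, 32.4 to 37.1 and 60.6 to 70.8 normalised reads in wild type without drug, wild type with drug, mutant without drug and mutant with drug, and in the other libraries at 76.4 to 463.5. Their fitted differences depend on the pseudocount through the library at 0, and the 6 calls were lost with limma-voom (adjusted p = 0.0507 to 0.0618) and without replicate 1 (adjusted p = 0.234 to 0.249), and 5 of them without replicate 3 (adjusted p = 0.0525 to 0.0611). The other falls in that set were the collagens col-110, col-115 (-2.83 ± 0.69) and col-58 (-2.76 ± 0.51), grl-5, and Y57A10B.7, C30H6.5 (-2.89 ± 0.60), Y53F4B.27 (-2.77 ± 0.62), K02E11.10 (-2.76 ± 0.58) and C04G6.2 (-2.75 ± 0.51). Y57A10B.7 varied little on each side, at 12.7, 6.25, 7.62 and 11.2 normalised reads in replicate 2 and 67.3 to 94.6, median 80.6, elsewhere.

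By name stem, listed after the values were seen, further groups with at least 10 tested genes moved mostly one way. The SET-domain genes had 24 of 30 higher and 1 lower (median 0.34), and the homeobox ceh genes 23 of 31 higher and 2 lower (median 0.81). The fungus-induced peptide-related fipr genes had 17 of 22 lower (median -0.92), the nspb genes 10 of 12 lower (median -1.95) and the snf transporter genes 9 of 12 lower and 2 higher (median -1.14). By mean level over the 12 libraries, the fifth of genes with the lowest means had 14.2% called higher and 30.4% lower, and the fifth with the highest had 41.2% and 14.1%.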
